A study of Mus musculus with 6 samples.

Results

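This account describes 2127 intergenic regions bound by E2A within 50 kb of a transcription start site in mouse neural stem cells. The assay was ChIP-seq, in which DNA bound by a protein is pulled down with an antibody (chromatin immunoprecipitation) and sequenced, and stretches with many reads are listed as peaks. The regions were chosen by 3 criteria applied to the longest wild-type peak list, that of wt replicate 3. A peak had to overlap a peak of wt replicate 1 or 2 by at least 1 bp, it had to be annotated as distal intergenic (outside promoters and gene bodies), and its nearest start site had to lie 50000 bp away or less. Of 24194 peaks in wt replicate 3, 12298 were also in another wild-type list (consensus peaks), 4384 of these were intergenic, and 2127 passed the distance limit. They make up 17.3% of the consensus peaks and 48.5% of the intergenic ones. Positions are those of the wt replicate 3 peak on the mouse build mm9, as deposited, and distances run from the nearer edge of the peak.

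E2A is the product of the gene Tcf3. Alternative splicing of Tcf3 gives the proteins E12 and E47, which differ in their basic helix-loop-helix (bHLH) domain, pair with each other or with tissue-specific bHLH proteins and bind the E-box, a short DNA word written CANNTG. Id proteins pair with E proteins but have no DNA-contacting region, so the pairs they form do not bind DNA. Bound sites between genes often lie in enhancers, stretches of DNA that can act on a gene from a distance. The gene nearest to such a site is a label of position and need not be the gene it acts on.

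The cells were proliferating neural stem cells taken from C57BL/6J embryos at E12.5 and grown in 20 ng/ml FGF-2 and 20 ng/ml EGF. The groups were wild type (3 libraries), E12 KO (1 library, E12KO below) and E47 KO (1 library, E47KO below), with an input DNA library that was not analysed here. Chromatin was crosslinked with EGS (1.5 mM, 20 min) and formaldehyde (1%, 10 min), and 1.5 µg of an antibody against E2A was used for each immunoprecipitation. The labels do not say whether the wild-type samples came from separate embryos or cultures, and peak lists show neither the genotype nor the markers of the cells. Read depth is unknown. The lists of wt replicates 1, 2 and 3 held 6814, 12772 and 24194 peaks, and those of E12KO and E47KO 25229 and 22176, so both knockout lists were longer than those of wt replicates 1 and 2. "Missing" below means that a list holds no peak there, not that binding was absent. With 1 library for each knockout there is no replicate error for a knockout value and no test between genotypes was made, and the intervals given are 95% Wilson intervals that cover counting error only.

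In 1 stretch the wild-type lists stood apart. Between Gas8 and Rhou on chromosome 8 (126067549 to 126147909, mm9, 80.4 kb) wt replicate 1 had 0 peaks, while wt replicates 2 and 3, E12KO and E47KO had 35, 25, 31 and 39. The stretch holds 14 of the 2127 regions. Without them, 96.9% of 2113 regions had a peak in E12KO and 93.4% in E47KO, against 96.8% and 93.3% with them.

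MicroRNA genes were among the nearest genes, with regions up to 50 kb from the annotated start. That start can belong to a long transcript (140244 bp for Mir125b-1), so a region need not lie beside the mature sequence. A microRNA recognises its targets mainly through its seed, bases 2 to 8. The regions had 33 microRNA genes as nearest genes, 2.0% of their 1650 genes, where all consensus peaks had 106 of 6375 (1.66%), so the share is near the background. Mature sequences from RefSeq (GRCm38.p6) were matched for 30 of them. Printed below is 1 arm each of Mir3089 and Mir670, the microRNA genes with most regions, of every matched gene that shares a seed with another, and of Mir674, whose region is described with the knockouts. Capitals mark the seed.
miR-9-5p (Mir9-1, Mir9-2 and Mir9-3): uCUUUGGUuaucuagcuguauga
let-7a-5p (Mirlet7a-1): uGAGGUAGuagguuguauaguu
let-7c-5p (Mirlet7c-2): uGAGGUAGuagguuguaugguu
miR-135a-5p (Mir135a-1 and Mir135a-2): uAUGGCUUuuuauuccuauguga
miR-181a-5p (Mir181a-1): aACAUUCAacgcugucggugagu
miR-181c-5p (Mir181c): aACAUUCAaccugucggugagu
miR-193a-3p (Mir193a): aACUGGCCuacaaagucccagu
miR-193b-3p (Mir193b): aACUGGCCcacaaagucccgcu
miR-3089-5p (Mir3089): uGAGUUCAgggacagcgugucu
miR-670-5p (Mir670): aUCCCUGAguguauguggugaa
miR-674-5p (Mir674): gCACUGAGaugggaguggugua
The let-7a and let-7c lines carry the same seed, as do the miR-181a and miR-181c lines and the miR-193a and miR-193b lines, and all 3 genes that give miR-9 had a region within 50 kb.

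The regions were unevenly placed around the start sites. Upstream of the nearest start site lay 1518 of them (71.4%, 69.4 to 73.2) and downstream 609. The median distance was 18919 bp over all regions (quartiles 8792 and 31675 bp, range 1045 to 49992 bp), 15870 bp upstream and 25444 bp downstream. Within 10 kb lay 520 of the upstream regions (34.3%) but 73 of the downstream ones (11.99%). An intergenic region downstream of a start has to lie past the annotated far end, so the 50 kb limit caps the length there and not upstream. The median annotated length was 6998 bp for downstream regions against 23577.5 bp for upstream ones. These lengths are those of the annotated transcript, which can be short (189 bp for Fgfr4). Downstream regions began at a median of 13513 bp past that annotated end (55 to 46221 bp), and 54 of them within 3 kb of it. The split was alike in every list: of all intergenic peaks within 50 kb, 72.1% ± 0.189 (SD, n = 3) were upstream in the wild-type lists, 71.6% in E12KO and 72.0% in E47KO. The class itself made up 17.1% ± 0.587 (SD, n = 3) of the peaks of a wild-type list, 16.4% of those of E12KO and 16.7% of those of E47KO.

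**Figure D1:**
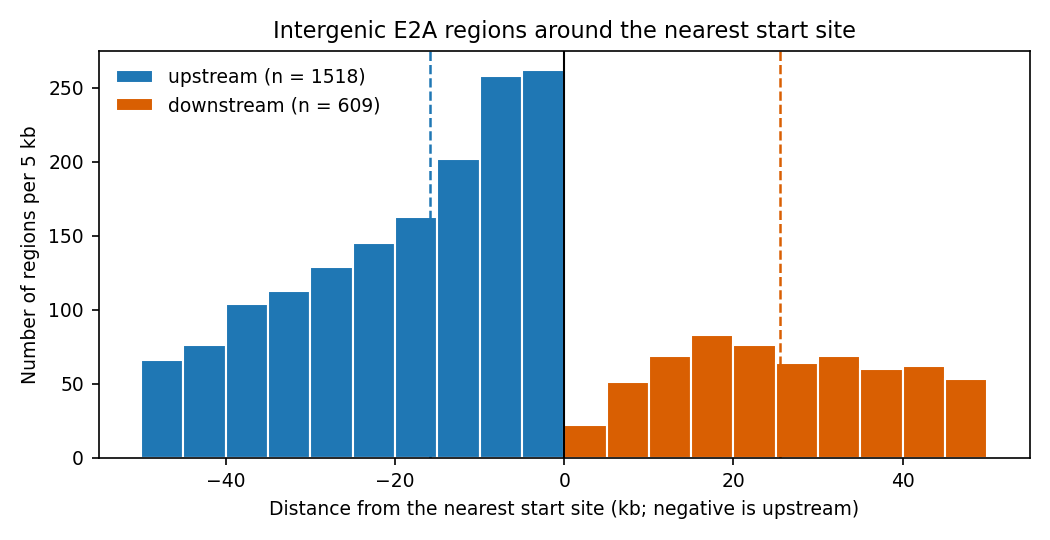
Number of regions per 5 kb against the signed distance from the nearest start site, with dashed lines at the medians of the 1518 upstream and the 609 downstream regions. Upstream counts are highest next to the start site, while 73 downstream regions lie within 10 kb.

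The regions closest to a start site belonged to Rcor2, a corepressor that works with REST (1.04 kb upstream, 10.7-fold enriched in wt replicate 1), to Mir99b (1.06 kb upstream, 8.54-fold) and to Osbpl2, an oxysterol-binding protein gene (1.07 kb upstream, no peak in wt replicate 1). Just inside the 50 kb limit lay a region 49.99 kb upstream of Col5a1 and a 20.8-fold region 49.99 kb downstream of the Pcnx start. Just outside it were peaks 50.1 kb upstream of Btg3 and 50.2 kb upstream of Slc22a16. All 4 had a peak in both knockouts, as did 92.1% of all consensus peaks.

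The 2127 regions named 1650 nearest genes, of which 1544 were protein-coding, 54 made long noncoding RNAs and 33 made microRNAs. This is 7.05% of the 21896 protein-coding genes of the RefSeq table, a share used below to read the gene lists. Most genes had 1 region (1316), 334 had at least 2, and 63 had regions on both sides. A promoter consensus peak was also present for 408 of the 1650 genes (24.7%). Over all 6375 genes named by any consensus peak that share was 41.0%, which counts genes named through their promoter peak alone. Over the 4817 genes named by a consensus peak outside promoters it was 21.9%. The 24.7% depends on the wild-type lists used: leaving out wt replicate 1 gave 21.5%, leaving out wt replicate 2 gave 13.9% and leaving out wt replicate 3 gave 10.6%, and the 21.9% was not recomputed in those settings. An intron consensus peak was present for 361 of the 1650 genes (21.88%). Over all 6375 genes that share was 38.4%, which counts genes named through their intron peak alone. Neither a promoter nor an intron consensus peak was found for 1011 of the 1650 genes (61.3%). The matching share over other genes was not computed, so this one has no background beside it.

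E-boxes were searched in the promoters of nearest genes that had a promoter peak as well, since the bases under the intergenic peaks (mm9) could not be read here. The 250 bases before each RefSeq start (GRCm38.p6) were searched for CAGCTG, which reads the same on both strands, and for CAGGTG on either strand (CACCTG on the other). Of 447 such promoters, 15.7% held CAGCTG and 13.2% held CAGGTG, against 4271 and 5657 (17.2%) of all 32851 promoters of the table. The general word CANNTG was in 55.0% of the 447 and 66.2% of all. Of 1182 promoters of nearest genes without a promoter peak, 11.3% held CAGCTG, 18.6% CAGGTG and 59.9% CANNTG. Of 33 listed genes with a region and a promoter peak, 24 held neither CAGCTG nor CAGGTG, among them Id3, Notch1, Nrarp, Olig2 and Btg2. Of the other 9, windows with 10 bases on each side are shown for examples with at least 2 regions each, Hes5, Dll1, Sox4 and Tcf12 (for the last and for Dll1 at 1 of their RefSeq starts). Capitals mark the E-box, and each window is read 5′ to 3′ on the gene's strand.
Hes5, chr4:154960719-154960744 (plus strand, E-box from 194 bases before the start): ccgcgcggccCACCTGctcctcgggg
Dll1, chr17:15377072-15377097 (minus strand, 155 bases before): gtgcagagagCAGGTGctgtctgcat
Dll1, chr17:15377049-15377074 (minus strand, 132 bases before): cattaccataCAGCTGagcgcacaaa
Sox4, chr13:28953895-28953920 (minus strand, 211 bases before): gcagaaatctCAGCTGtacttctagc
Tcf12, chr9:72112044-72112069 (minus strand, 240 bases before): agatgctgccCAGCTGcgtccccgtc
Whether these letters lie under the promoter peaks was not tested, because the peaks are placed on another build, and a match is a word in the sequence, not a bound site.

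Nearly all regions had a peak in each knockout. E12KO had a peak at 2059 of the 2127 regions (96.8%, 95.97 to 97.5) and E47KO at 1985 (93.3%, 92.2 to 94.3), where all 12298 consensus peaks gave 96.7% and 93.6%. Both knockouts had a peak at 1960 regions (92.1%, 90.9 to 93.2), against 92.1% of the consensus peaks. E12KO alone lacked a peak at 25 regions (1.18%), E47KO alone lacked it at 99 (4.65%), and both lacked it at 43 (2.02%), and the matching shares of all consensus peaks were 1.48%, 4.61% and 1.79%. These shares lie near the background. Intergenic consensus peaks farther than 50 kb from a start had a peak in E12KO in 97.2% of cases and in E47KO in 94.2%. Upstream and downstream regions gave 97.04% and 96.2% in E12KO and 93.4% and 93.1% in E47KO, with overlapping intervals.

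The share with a knockout peak moved with support in the wild-type lists. Of the 786 regions in all 3 wild-type lists, 785 (99.9%) had a peak in E12KO and 771 (98.1%) in E47KO. Of the 1138 regions shared by wt replicates 3 and 2 alone, 97.9% had a peak in E12KO and 94.2% in E47KO. Of the 203 shared by wt replicates 3 and 1 alone, 78.8% (72.7 to 83.9) did in E12KO and 70.0% (63.3 to 75.8) in E47KO. This set held 31 of the 43 regions missing in both knockouts. All consensus peaks showed the same order. In E12KO and E47KO they gave 99.6% and 98.4% for all 3 wild-type lists. For wt replicates 3 and 2 alone they gave 97.4% and 94.4%, and for wt replicates 3 and 1 alone 83.6% and 73.1%. The last set held 131 of the 220 consensus peaks missing in both. The intergenic regions within 50 kb were also looked up in the wild-type list that had not been used to support them. Of the 989 regions in wt replicates 3 and 1, wt replicate 2 had a peak at 79.5% (76.8 to 81.9), fewer than E12KO (95.6%) or E47KO (92.3%). Of the 1924 regions in wt replicates 3 and 2, wt replicate 1 had a peak at 40.9%, again fewer than E12KO (98.7%) or E47KO (95.8%). The wt replicate 1 and 2 lists were the shorter ones, and wt replicate 1 carries another false discovery rate label, so these shares do not set knockout and wild-type lists at 1 threshold. The part of list length and threshold was not tested.

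**Figure D2:**
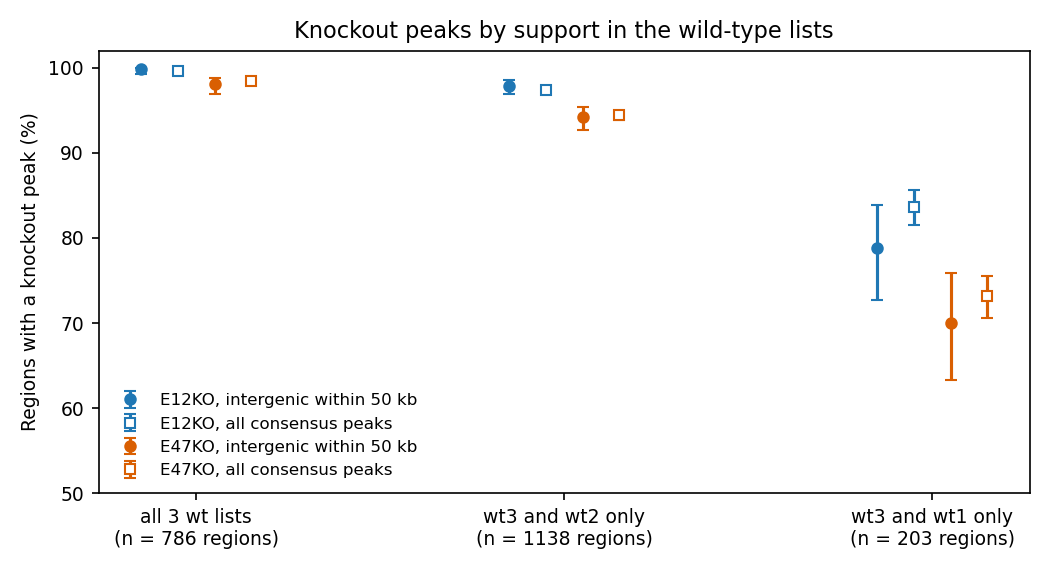
Share of regions with a peak in E12KO and E47KO, by the wild-type lists that hold the region, with 95% Wilson intervals (vertical axis from 50%). Filled circles are the intergenic regions within 50 kb and open squares all consensus peaks. Among regions of wt replicates 3 and 1 alone the intergenic shares are 78.8% and 70.0%, below those of the other sets. The shares of all consensus peaks there are 83.6% and 73.1%, also below those of the other sets.

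Only the list of wt replicate 1 carries scores, and its fold enrichment (ChIP over the peak caller's background, as given by the authors) was used to rank regions. Over the 989 regions with a peak in that list the median was 8.24-fold (quartiles 6.38 and 12.46, range 3.22 to 106), against 7.85 over the consensus peaks, and 94 regions reached 20-fold. From the lowest to the highest quartile of fold, wt replicate 2 had a peak at 66.9%, 68.4%, 88.7% and 93.9% of regions. E12KO had a peak at 95.2%, 91.5%, 97.2% and 98.4%, and E47KO at 88.3%, 86.2%, 97.2% and 97.6%. In both knockouts the share was lowest in the next-to-lowest quartile of fold, but its interval overlapped that of the lowest quartile. These intervals were 87.4 to 94.4 against 91.7 to 97.2 in E12KO, and 81.4 to 89.98 against 83.7 to 91.7 in E47KO. For E12KO the intervals of the lowest quartile (91.7 to 97.2) and the highest (95.9 to 99.4) overlapped. By peak width, over all 2127 regions, in the narrowest quartile of wt replicate 3 peaks (134 to 492 bp) 90.2% had a peak in E12KO and 82.5% in E47KO, and in the widest (920 bp and more) 99.6% did in each. Regions present in both knockouts were 693 bp wide at the median in wt replicate 3, whereas those missing in E12KO alone, E47KO alone and both were 383, 421 and 381 bp wide.

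**Figure D3:**
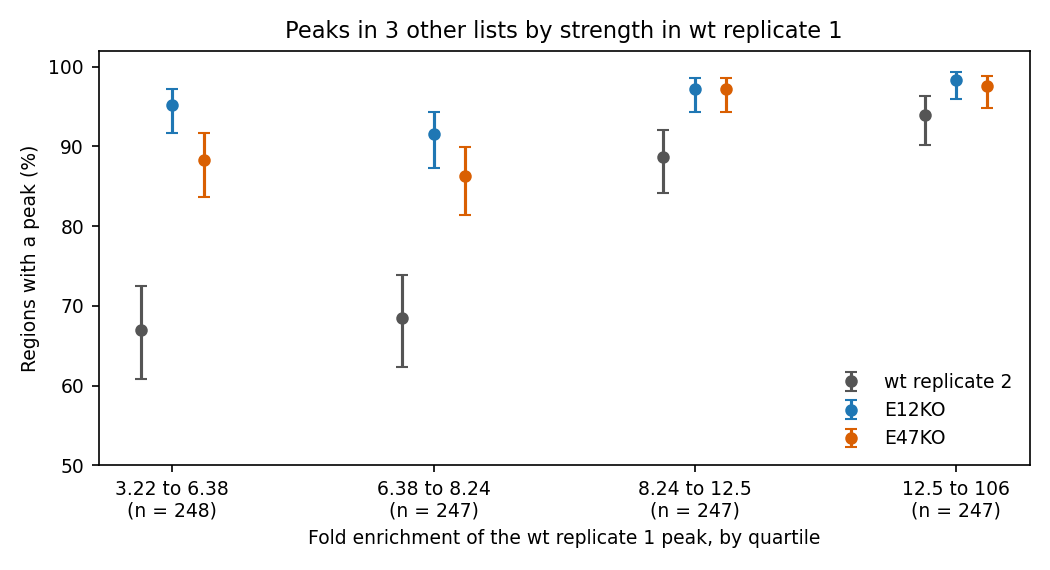
Share of the 989 regions with a wt replicate 1 peak that also had a peak in wt replicate 2, E12KO or E47KO, by quartile of that peak's fold enrichment, with 95% Wilson intervals (vertical axis from 50%). The shares of wt replicate 2 lie below those of both knockouts in every quartile and rise from 66.9% to 93.9%.

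The 10 strongest regions, ranked by the −log10 q of wt replicate 1, had a peak in both knockouts, as did 92.1% of all consensus peaks. The strongest lay 47.5 kb upstream of Gng13, which encodes a G protein gamma subunit (chromosome 17, 25804218 to 25806568, 106-fold), and its peak was 2351 bp wide in wt replicate 3, 970 bp in wt replicate 1, 697 bp in wt replicate 2, 1270 bp in E12KO and 2051 bp in E47KO. A 75.8-fold region lay 31.1 kb upstream of Eya2, a transcriptional coactivator with phosphatase activity (chromosome 2, 165388646 to 165389410). A 74.4-fold region lay 14.6 kb upstream of Brd7, a bromodomain protein of a chromatin remodelling complex (chromosome 8, 90900663 to 90901857). The others were 69.8-fold upstream of the chemokine receptor gene Ccr6, 64.4-fold upstream of 1810041L15Rik, 58.3-fold downstream of the start of Olig1, 58.0-fold upstream of the neurotensin receptor gene Ntsr2, 55.8-fold downstream of the start of Mcur1, a regulator of mitochondrial calcium uptake, 55.0-fold upstream of Ehbp1 and 53.2-fold downstream of the start of Safb2. Of these 10, the Safb2 region had no peak in wt replicate 2, although its wt replicate 1 peak was 53.2-fold enriched.

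Among E proteins and Id factors, 4 of 7 genes had a region (Tcf12, Id1, Id2 and Id3), and all 13 of their regions had a peak in both knockouts. Of all consensus peaks 92.1% did, which is the share to set beside each list below. Id3 had 6 regions, 5 of them upstream (2.67 to 38.2 kb) and 1 at 3.83 kb downstream, and 5 of them were in all 3 wild-type lists. The strongest, 2.67 kb upstream (chromosome 4, 135695684 to 135697066), was 34.7-fold enriched and was followed by a 23.0-fold region 7.83 kb upstream (135690649 to 135691910). At the strongest the peak was 1383 bp wide in wt replicate 3, 716 bp in wt replicate 1, 883 bp in wt replicate 2, 1254 bp in E12KO and 1343 bp in E47KO. Id2 had a 35.8-fold region 2.38 kb upstream (chromosome 12, 25783332 to 25784588) and a 5.34-fold region 28.4 kb upstream that wt replicate 2 lacked. Id1 had a 24.2-fold region 2.76 kb downstream of its start (chromosome 2, 152564770 to 152565600) and a 15.8-fold region 11.96 kb upstream. Id1 and Id3 also had a promoter peak and Id2 did not. Tcf12, which encodes the E protein HEB, had 3 weaker regions, of at most 5.91-fold, 20.9 to 43.4 kb from the starts of its annotated transcripts.

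The Notch pathway, which keeps neural stem cells undifferentiated through its HES and HEY repressors, had regions at 8 of 26 genes, and all 20 regions had a peak in both knockouts. Among the ligands, Dll1 had 2 upstream regions, at 3.05 and 4.54 kb. For the receptor Notch1 there were 3 neighbouring regions 27.8 to 30.6 kb upstream (chromosome 2, 26387142 to 26391473), 1 of them in wt replicate 1 (8.83-fold). The DNA-binding partner Rbpj had a single 21.6-fold region 29.7 kb upstream (chromosome 5, 53916668 to 53917352). The target Hes5 had 3 regions, all upstream and all in the 3 wild-type lists, at 1.94 kb (35.4-fold, chromosome 4, 154332314 to 154333089), 7.75 kb (16.9-fold) and 11.7 kb (26.1-fold). At 1.94 kb from Hes5 the peak was 776 bp wide in wt replicate 3, 793 and 664 bp in wt replicates 1 and 2, 938 bp in E12KO and 749 bp in E47KO. Nrarp, a feedback inhibitor of Notch, had 4 regions between 12.1 kb upstream and 4.55 kb downstream, the strongest 19.5-fold at 1.79 kb upstream. Hes1 had 4 regions within 7.84 kb, on either side of the gene, of which those upstream were absent from wt replicate 1, and the other two were 7.11-fold and 11.8-fold enriched. Hey1 had a region 17.9 kb upstream and Heyl regions 4.77 and 7.09 kb upstream.

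Regions lay near 8 of 18 proneural and other neural bHLH genes, whose products pair with E proteins in many cases, and all 12 regions had a peak in both knockouts. Olig1 and Olig2, neighbouring genes of the oligodendrocyte and motor neuron lineages on chromosome 16, had 3 regions each. Those of Olig1 were at 5.69 kb upstream (15.0-fold), 3.34 kb upstream (8.04-fold) and 34.0 kb downstream of the start (58.3-fold, 91303965 to 91306624). The last was wide in each list, with 2660 bp in wt replicate 3, 1439 and 2758 bp in wt replicates 1 and 2, 3101 bp in E12KO and 2889 bp in E47KO. Those of Olig2 were at 32.3 kb upstream (34.5-fold, 91191449 to 91193536), 2.21 kb upstream (4.02-fold) and 7.86 kb downstream (12.9-fold, not in wt replicate 2). The bHLH factor Neurod4 had a 12.8-fold region 20.3 kb downstream. Insm1, a zinc-finger gene of neuronal differentiation placed on this list, had a 10.7-fold region 4.28 kb upstream.

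Sox factors, high-mobility-group regulators of neural and glial fate, had regions at 4 of 13 genes. Of their 8 regions, all had a peak in E12KO and 7 in E47KO. The exception lay 5.78 kb upstream of Sox4 (chromosome 13, 29051328 to 29051763) and was also missing in wt replicate 2. Sox4 had regions at 4.31 kb upstream (6.27-fold) and 11.1 kb downstream (6.41-fold) in both knockouts. Sox8 had 3 downstream regions, the strongest 18.2-fold at 13.1 kb. Sox11 had a 15.1-fold region 14.3 kb upstream (chromosome 12, 28041847 to 28042605), and Sox9 had an 8.04-fold region 25.8 kb downstream.

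Neural stem cell markers were among the lists with the most genes represented, with 11 of 22 genes and 13 regions, all with a peak in both knockouts. The strongest were an 18.9-fold region 35.4 kb downstream of a start of Msi2, an RNA-binding protein gene (chromosome 11, 88144146 to 88145069), and a 17.8-fold region 40.3 kb upstream of Ptprz1, a receptor phosphatase gene (chromosome 6, 22783631 to 22785196). The intermediate filament gene Nes had regions at 9.97 kb upstream and 9.62 kb downstream of its start, the latter 3117 bp wide in wt replicate 3, and Vim had a region 1.67 kb upstream that wt replicate 1 lacked. Astrocyte markers had regions at 6 of 18 genes, oligodendrocyte lineage genes at 4 of 16 and cortical neuron genes at 4 of 20. Of these, 1 region, upstream of the astrocyte gene Nfix, was missing in E47KO and in wt replicate 2. Microglia markers (0 of 13) and endothelial markers (0 of 12) had none, while skeletal muscle genes had 3 of 18, ribosomal protein genes 3 of 25 and lymphoid E2A targets 1 of 20, the last being Dntt (11.97-fold, 6.28 kb upstream), which encodes the terminal transferase of lymphocytes. These shares were read beside the 7.05% over all protein-coding genes and were not tested, and they speak of position, not of expression. The lists were chosen with earlier results of these data known, so a high share is no measure of enrichment.

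CDK inhibitors and cell cycle exit genes had regions at 5 of 18 genes, with 8 of 9 regions present in E12KO and 8 in E47KO, where 92.1% of all consensus peaks were in both. The exception belonged to Btg2, an antiproliferative gene of neurogenic divisions. Its 4 regions on chromosome 1 lay at 3.63 kb upstream and at 11.5, 15.2 and 17.5 kb downstream of the start. The region at 11.5 kb (135963862 to 135964243) was 19.1-fold enriched in wt replicate 1 and was missing in wt replicate 2 and both knockouts, whereas the 21.9-fold region at 15.2 kb (135959144 to 135960577) was in all 5 lists. Its peak was 1434 bp wide in wt replicate 3, 1389 and 1352 bp in wt replicates 1 and 2, 1749 bp in E12KO and 1833 bp in E47KO. Cdkn1c, the gene of the p57 inhibitor, had 2 regions downstream, of 7.27-fold and 8.19-fold. Cell cycle drivers had regions at 5 of 20 genes, all in both knockouts, led by E2f1 (17.8-fold, 7.18 kb upstream), Mycn (17.5-fold, 35.5 kb downstream) and Ccne1 (10.7-fold, 18.03 kb upstream).

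The signalling lists were represented by 6 of 34 Wnt, 9 of 25 FGF and EGF, 5 of 31 BMP and TGF-beta and 3 of 15 Sonic hedgehog genes. For the ligand Wnt5a a 23.4-fold region lay 2.28 kb upstream (chromosome 14, 29315652 to 29316380). The ligand Wnt7b had 4 regions 28.9 to 43.8 kb upstream, all in both knockouts. The receptor Fzd9 had 4 upstream regions from 2.57 to 20.6 kb, and the region at 13.2 kb (chromosome 5, 135740084 to 135740930) was missing in E12KO and in wt replicate 1. Of the BMP mediators, Smad5 had a 4.33-fold region 4.06 kb upstream that E12KO and wt replicate 2 lacked and a 5.28-fold region 31.3 kb upstream that all 5 lists held. All 11 FGF and EGF regions were in both knockouts, among them those of the receptor genes Fgfr3 and Fgfr4 and of the feedback inhibitors Spry1 and Spry2. For the hedgehog receptor Ptch1, regions lay 17.0 kb downstream and 32.1 kb upstream of its starts, the former 10.5-fold. Axon guidance genes had regions at 5 of 34 genes, led by a 22.1-fold region 2.14 kb upstream of Slit1, and 5 of 6 regions were in E47KO, the exception lying near Sema3c, whose wt replicate 3 peak of 222 bp had no partner in wt replicate 1 either.

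Forebrain homeobox genes had regions at 6 of 30 genes and nuclear receptor genes at 5 of 23, and none of these regions was missing in a knockout. The interneuron regulator Gsx2 had a 10.1-fold region 9.43 kb downstream, and Lhx2 had 2 downstream regions that wt replicate 1 lacked. The immediate early genes Nr4a1 and Nr4a3 had 3 and 2 upstream regions, of which 1, at 1.48 kb from Nr4a3, was in wt replicate 1 (4.02-fold). Over all lists together, 97 of 442 genes had a region, and of their 156 regions 153 had a peak in E12KO and 151 in E47KO. All consensus peaks gave 96.7% and 93.6%.

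**Figure D4:**
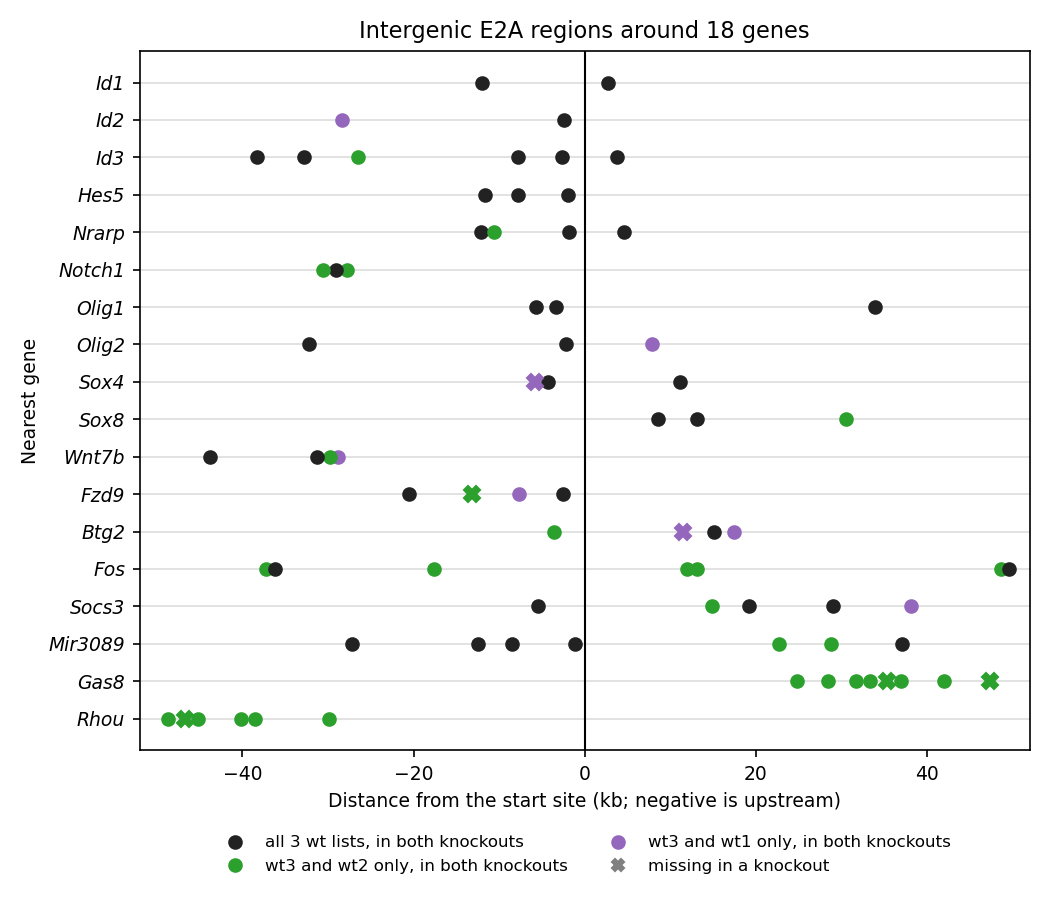
Position of each region relative to the start site of its nearest gene for 18 genes, coloured by the wild-type lists that hold it, with crosses for regions missing in at least 1 knockout. The regions of Id3, Hes5, Nrarp, Olig1 and Olig2 are all circles, while Sox4, Fzd9 and Btg2 have 1 cross each and the regions of Gas8 and Rhou carry no wt replicate 1 peak.

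Several genes gathered many regions. Gas8 had 8 and Rhou 6, all in the chromosome 8 stretch that wt replicate 1 lacked, with 7 and 5 of them present in each knockout. Fos, an immediate early transcription factor gene, had 7 regions from 37.2 kb upstream to 49.6 kb downstream, of which 2 were in wt replicate 1 (5.56-fold and 6.95-fold), and all 7 were in both knockouts. Gm3238 had 6 regions in all 5 lists, between 9.61-fold and 18.2-fold. Socs3, a cytokine signalling inhibitor, had 5, from 5.49 kb upstream to 38.1 kb downstream, the strongest 17.7-fold at 19.1 kb downstream. Eef1a1, Fbln2 and Extl3 also had 5 each, all in both knockouts, with a 30.6-fold region 11.5 kb upstream of Fbln2, a gene of the extracellular matrix. Neighbouring regions could share a knockout peak where that peak was wide: at Fos, the regions at 48.7 and 49.6 kb downstream overlapped the same E47KO peak of 2833 bp.

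The 52 regions nearest to microRNA genes included 36 upstream ones, and 50 had a peak in E12KO and 47 in E47KO. All consensus peaks gave 96.7% and 93.6%. Mir3089 had 7, from 27.2 kb upstream to 37.1 kb downstream, led by a 41.1-fold region (chromosome 2, 30547631 to 30549565) and all in both knockouts. For miR-9, a microRNA of neural progenitors, Mir9-1 had regions 9.21 and 11.9 kb downstream (5.94-fold and 10.8-fold), Mir9-2 a region 1.959 kb downstream and Mir9-3 a region 1.79 kb upstream. Those of Mir9-2 and Mir9-3 were not in wt replicate 1, and all 4 were in both knockouts. The let-7 genes Mirlet7c-2 and Mirlet7a-1 had 3 and 2 upstream regions, the strongest 11.7-fold at 18.4 kb from Mirlet7c-2. Mir670 had 4 regions, all upstream and in both knockouts, and Mir125b-1 had 2 upstream regions (9.27-fold and 8.35-fold), and Mir135a-1 a 17.8-fold region 21.3 kb upstream. Regions near Mir33, Mir135a-2 and Mir674 were missing in E47KO, and those near Mir139 and Mir3475 in both knockouts. The seed of miR-135a is given by both of its genes, of which Mir135a-1 had its region in both knockouts.

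The regions missing in E12KO alone were held by wt replicate 1 in 12 of 25 cases and by all 3 wild-type lists in 0 cases. Ranked by score, they were led by regions upstream of the netrin receptor gene Unc5a (12.9-fold, 12.8 kb, chromosome 13, 55037610 to 55037992), Rnaseh2b (11.4-fold, 4.68 kb), the zinc-finger gene Casz1 (9.97-fold, 33.4 kb), the Wnt receptor gene Ror2 (8.78-fold, 23.6 kb) and the acetyltransferase gene Kat6b (8.04-fold, 10.4 kb). These 5 were also missing in wt replicate 2, which the ranking fixed in advance. A score needs a wt replicate 1 peak, and no region of this set was in all 3 wild-type lists. The 13 regions without a score all had a wt replicate 2 peak.

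Of the 99 regions missing in E47KO alone, 14 were in all 3 wild-type lists and in E12KO. The highest score belonged to a 23.6-fold region 43.3 kb downstream of the start of Zfp326 (chromosome 5, 106348860 to 106349162), which wt replicate 2 also lacked, as it did the 8.90-fold region upstream of the prokineticin receptor gene Prokr2. The others named by score were in all 3 wild-type lists. They lay 25.4 kb downstream of the start of Mir674 (13.3-fold, chromosome 2, 117036303 to 117036912), 9.87 kb downstream of the start of Gm9159 (15.3-fold, chromosome X, 100750709 to 100751451), 32.3 kb downstream of the start of the nuclear transport GTPase gene Ran (9.11-fold, chromosome 5, 129558619 to 129559138) and 12.52 kb upstream of the synaptic adhesion gene Lrrc4b (8.66-fold, chromosome 7, 51684452 to 51685334). At the Lrrc4b region the peak was 883 bp wide in wt replicate 3 and 1561 bp in E12KO. The remaining 10 of the 14, picked out after their values were seen, had 5.05-fold to 8.03-fold peaks near Calm2, Gm11426, Anxa11, Kcna5, Sh2d3c, Sccpdh, Slc1a1, Rhbg, Dubr and Sept7. The median fold of the 14 was 6.65, against 9.07 for the 771 regions in all 5 lists.

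Of the 43 regions missing in both knockouts, 1 was in all 3 wild-type lists. It lay 41.9 kb upstream of Hopx, a homeodomain-only gene that marks some stem cells (chromosome 5, 77586057 to 77586434), with a 10.7-fold wt replicate 1 peak of 452 bp, a wt replicate 2 peak of 427 bp and a wt replicate 3 peak of 378 bp. The Btg2 region described above had the highest score of the 43. The others named by score lay 44.7 kb upstream of the stress kinase gene Mapk8 (14.6-fold), 4.68 kb upstream of Vps37b, a gene of endosomal sorting (13.9-fold), 22.4 kb downstream of the start of the lens crystallin gene Crybb2 (9.08-fold) and 4.70 kb upstream of Fam83a (8.90-fold). These 4 were missing in wt replicate 2 as well, as every scored region of the 43 other than the Hopx one had to be. Counted by gene, 44 of the 1650 nearest genes had none of their regions in E12KO, 100 had none in E47KO and 28 had none in either. As 1316 of the 1650 had a single region, these counts follow the shares by region, which lie near the background. The matching counts over all genes named by a consensus peak were not made.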

How the data were processed

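Peak lists of 5 ChIP-seq libraries were used, 1 per library and not for pooled samples. The submitters' processing notes name MACS2 2.1.0, Picard 1.119 and BWA 0.7.13 and the mouse build mm9, and the sources used here give no settings. The deposited tables give, per the file headers, each peak's start and end, annotation, nearest gene and signed distance to its start site. Only the deposited table of wt replicate 1 adds −log10 p and −log10 q values, a fold enrichment (a ratio) and a pileup signal (coverage) for each peak, as the authors' caller wrote them. They served to rank and describe regions. The false discovery rate named with the deposited lists differs between wt replicate 1 (lowest −log10 q 2.07) and the other 4, and the annotation of wt replicate 1 extends promoters to 2 kb rather than 1 kb. For the 989 regions with a wt replicate 1 peak, the overlapping peak of highest −log10 q was annotated there as promoter in 13 cases. In 52 cases it was annotated as downstream of a gene.

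Groups came from the labels. Overlaps of at least 1 bp were counted with Python 3.11.15 and pandas 2.3.3, on code tested on simulated data. A region's scores are those of the overlapping wt replicate 1 peak. Gene names and classes came from a RefSeq table (GRCm38.p6). Named were the 10 regions of highest −log10 q, the 6 highest of each set missing in a knockout, the 8 genes with most regions (10 owing to ties), up to 4 genes of each of the 22 gene lists (458 entries), and the regions nearest to a start and to the limit. Genes of the lists, miRNA genes and regions named beyond this rule were chosen after their values were seen. The regions and the gene lists were chosen with earlier results of these data known. Other overlaps, distance limits, support rules and score minimums were tried, and each wild-type list was left out in turn. A few regions that meet these criteria are not reported here.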

Additional observations from a re-analysis of the deposited data

How the results depend on the processing

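The shares with a knockout peak kept above 90% under every alternative run. With at least 50% of the peak shared they were 92.03% in E47KO and 90.654% in both knockouts, and 14.316% of genes had a promoter peak. Requiring both wt replicates 1 and 2 left 786 regions, of which 99.873% had a peak in E12KO, 98.092% in E47KO and 98.092% in both, with a median fold of 8.9369 and a promoter peak at 11.411% of genes. A distance limit of 25 kb gave 1331 regions and 77.385% upstream, and a limit of 100 kb gave 67.259% upstream. Leaving out each wild-type list in turn gave 813 regions (without wt replicate 3) to 1924 (without wt replicate 1), 95.551% to 99.631% in E12KO, 92.315% to 97.786% in E47KO, 91.102% to 97.663% in both, 69.262% to 72.297% upstream, 10.604% to 21.495% of genes with a promoter peak and a median fold of 8.2379 to 8.8996, with no value without wt replicate 1. Fewer supporting lists leave fewer consensus promoter peaks and fewer regions. The part of each in the promoter share was not tested. No paired analysis was possible because no result comes from a test and each knockout has 1 library. Read depth is unknown, and how far a missing peak lay below a list's threshold was not tested.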

Other observations

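Overlapping peaks were compared in width with the wt replicate 3 peaks of the same regions. Medians were 453 against 760 bp in wt replicate 1, 454 against 690.5 bp in wt replicate 2, 754 against 679 bp in E12KO and 674 against 690 bp in E47KO, each over the regions that the list holds.

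The widest region was a peak of 12587 bp that began 2.96 kb upstream of Ttc34 (chromosome 4, 154214767 to 154227353). It was 12356 bp wide in wt replicate 2, 12513 bp in E12KO and 12622 bp in E47KO, and wt replicate 1 had no peak there. The next widest, 11.9 kb downstream of Mir9-1, was 6001 bp wide in wt replicate 3 and met peaks of 587 bp in wt replicate 1 and 8516 bp in E12KO.

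By chromosome, the share of regions with an E47KO peak ran from 83.9% of 56 regions on chromosome 19 to all 99 on chromosome 12. Regions less than 5 kb from the next accounted for 194 of 2107 neighbouring pairs.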
